A study of Homo sapiens with 10 samples.

Results

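The genes described here encode apoptotic caspases and the proteins that hold them in check: the caspases CASP8, CASP10, CASP9 and CASP6, the caspase-8 decoy CFLAR, and the inhibitor of apoptosis (IAP) proteins BIRC2, BIRC3 and XIAP. Members were taken as probe sets whose single gene symbol in the platform annotation was one of these 8 names. Probe sets were found for 7 of the 8 genes, 1 per gene, among 7714 genes with such a symbol; BIRC3 was matched to none. RNA came from U937, an established human monocytic cell line, and all groups, controls included, had been differentiated with interferon gamma. The 5 groups of 2 arrays were control cells with no cross-linking and no time listed, and cells in which the Fc gamma receptor CD32 (low affinity for IgG) or CD64 (high affinity) had been cross-linked for 2 h or 6 h. The source name of 1 CD32 2 h array read differently, and its title was followed. The labels called 1 array of each cross-linked pair a duplicate without saying whether it was a separate culture, so p-values measure the spread between these arrays, which may be technical.

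Caspases are proteases made as inactive precursors. Death receptors of the tumour necrosis factor family recruit the initiator caspases CASP8 and CASP10 through the adaptor FADD, and mitochondrial cytochrome c with APAF1 activates the initiator CASP9; effector caspases, CASP6 among them, then cleave cellular proteins. CFLAR resembles CASP8 but lacks protease activity and competes for FADD, XIAP binds and blocks caspases directly, and BIRC2 is a ubiquitin ligase that acts in tumour necrosis factor and NF-kappaB signalling. Monocytes and macrophages also use CASP8 and the IAP proteins in signalling that does not end in death. Transcript levels do not show caspase activity, which depends on cleavage of the protein.

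Promoter sequences are shown for CASP8, BIRC2 and CASP6, the 3 genes whose signal differed between groups. They come from RefSeq on GRCh38.p14, in the 5′ to 3′ direction of the gene, and run from 250 bases before to 30 bases after the most upstream start listed (1 of 3 listed starts for CASP8, 1 of 2 for BIRC2 and the 1 listed for CASP6). Capitals mark the motif matches described after the sequences.
CASP8, chr2:201233213-201233492, plus strand: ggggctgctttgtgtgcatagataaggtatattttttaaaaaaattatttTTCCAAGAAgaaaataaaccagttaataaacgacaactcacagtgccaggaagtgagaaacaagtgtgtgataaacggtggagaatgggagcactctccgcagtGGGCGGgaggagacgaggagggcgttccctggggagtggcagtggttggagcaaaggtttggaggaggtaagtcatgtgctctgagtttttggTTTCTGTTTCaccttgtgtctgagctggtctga
BIRC2, chr11:102346964-102347243, plus strand: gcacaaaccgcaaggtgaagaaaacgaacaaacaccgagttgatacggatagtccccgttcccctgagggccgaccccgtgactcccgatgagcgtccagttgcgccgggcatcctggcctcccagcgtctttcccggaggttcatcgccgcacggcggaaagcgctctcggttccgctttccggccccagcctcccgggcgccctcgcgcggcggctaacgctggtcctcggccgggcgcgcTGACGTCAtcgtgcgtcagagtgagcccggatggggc
CASP6, chr4:109703416-109703695, minus strand: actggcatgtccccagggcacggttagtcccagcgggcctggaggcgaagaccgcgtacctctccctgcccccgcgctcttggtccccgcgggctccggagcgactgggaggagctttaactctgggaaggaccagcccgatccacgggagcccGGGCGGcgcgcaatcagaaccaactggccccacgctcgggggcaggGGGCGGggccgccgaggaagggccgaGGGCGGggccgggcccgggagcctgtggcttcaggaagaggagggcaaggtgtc

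Both strands were searched for 7 motifs: the interferon-stimulated response element core (GAAA, any 2 bases, GAAA), the STAT site TTCNNNGAA, the AP-1 site TGANTCA, the cyclic AMP response element TGACGTCA, the E-box CACGTG, the GC box GGGCGG and the kappaB motif. In the CASP8 promoter a STAT match began 200 bases before the start, a GC box match began 96 bases before it, and a response element core match lay across the start. The BIRC2 promoter held a cyclic AMP element match that ended on the start base, and the CASP6 promoter held 3 GC box matches and none of the other 6 motifs. No match in these 3 sequences overlapped another. Of 35116 windows of the same length in the table, 3.39% held the response element core, 7.30% the STAT motif, 1.84% the cyclic AMP element, 44.1% the GC box and 10.6% the kappaB motif. The AP-1 motif was in 7.35%. The windows of the other 2 listed CASP8 starts, not shown, each held 1 AP-1 match and none of the other 6 motifs. In the window of the other listed BIRC2 start, also not shown, the cyclic AMP element match began 167 bases before that start. A GC box match began 134 bases before it, so the BIRC2 matches depend on the start chosen. CFLAR and BIRC3 had kappaB matches in the windows of their most upstream starts, 1 and 2 respectively, and the CFLAR match overlapped a GC box match. On chromosome 2, CFLAR, CASP10 and CASP8 are consecutive protein-coding genes, and on chromosome 11 BIRC3 and BIRC2 are consecutive. A match describes letters and is not a shown binding site.

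Array values were linear signal in arbitrary units. Array medians lay between 101 and 153, and 20.2% to 29.8% of probe sets were at or under 37.5, the floor used for the log2 scale; the number of arrays limits the precision. In bulk RNA, fewer cells with a transcript and less of it per cell cannot be told apart. Of 8 monocyte and macrophage markers on the array 7 were above the floor on all 10 arrays, among them SPI1, ITGAM and FCGR2A, while CD14 was above it on 3 arrays. The summed signal of these 8 markers was 4187 to 4755 in control, 4743 to 4838 and 6695 to 7060 in CD32 at 2 h and 6 h, and 3272 to 3522 and 4277 to 4408 in CD64 at 2 h and 6 h. Over the 10 arrays CD4 ran from 517.6 to 2473.7 and TYROBP from 1444.1 to 2237.0, the widest ranges of the 8. The sum therefore does not show a change of all 8 markers. Each list of markers of other cells held 1 gene above the floor on all 10 arrays: CD2 of 5 T cell markers, CD79A of 4 B cell markers, NKG7 of 5 natural killer cell markers (1409 to 2300), HBB of 3 erythroid and platelet markers (169.6 to 463.7) and KRT8 of 7 epithelial and fibroblast markers. Of these lists 3, 1, 2, 1 and 3 genes were under the floor on most arrays. Over all groups the summed signal ran from 133.3 to 338.3 for the T cell list, 158.7 to 552.7 for B cells, 1515 to 2414 for natural killer cells, 246.9 to 562.1 for erythroid cells and platelets and 210.9 to 477.4 for epithelial cells and fibroblasts. Technical readings also went with the groups. The mean log2 signal of 9 bacterial and phage spike probe sets was 10.38 in control, 11.03 and 12.11 in CD32 at 2 h and 6 h, and 10.55 and 9.03 in CD64 at 2 h and 6 h. Actin probe sets at the 3′ end read 1.30 times those at the 5′ end in control, 1.56 and 1.99 times in CD32 at 2 h and 6 h, and 1.81 and 1.12 times in CD64 at 2 h and 6 h. These readings and the marker sums cannot be told apart from the group, and their part in the results was not tested.

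CASP8 was higher in each cross-linked group than in control. Its signal was 559.2 and 476.0 on the control arrays. It was 1121.9 and 1000.8 after 2 h and 804.6 and 892.5 after 6 h of CD32. It was 916.5 and 798.6 after 2 h and 1251 and 1110.2 after 6 h of CD64. No cross-linked array overlapped the control arrays. With 2 arrays per group, absence of overlap is a weak mark of difference, here and for the genes below. Its share over all probe sets was not counted. CASP8 rose 2.05-fold after 2 h of CD32 (log2 difference 1.04 ± 0.132 SE, n = 2 arrays per group, adjusted p = 0.000403, limma) and 1.64-fold after 6 h (0.72, adjusted p = 0.00296). It rose 1.66-fold after 2 h of CD64 (0.73, adjusted p = 0.00392) and 2.28-fold after 6 h (1.19, adjusted p = 0.000105). In order of level the groups ran from control through CD32 6 h, CD64 2 h and CD32 2 h to CD64 6 h. The step from control to CD32 6 h passed the test, and the 3 further steps between neighbours did not (limma adjusted p = 0.154 to 0.989).

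CASP10, the gene next to CASP8, and CFLAR, the gene beyond CASP10, did not pass the F-test over the 4 comparisons with control (limma adjusted p = 0.492 and 0.187). Neither passed any comparison between groups. CASP10 read 166.8 and 129.1 in control, 148.0 and 199.9 in CD32 2 h, 213.1 and 162.8 in CD32 6 h, 163.7 and 94.8 in CD64 2 h, and 223.9 and 194.8 in CD64 6 h. The CD64 6 h arrays were above the control arrays without overlap; the other 3 groups overlapped with control. The 95% interval of the CD64 6 h difference from control ran from -0.29 to 1.31 on the log2 scale, so a change as large as that of CASP8 is within it. CFLAR read 86.6 and 75.6 in control, 77.0 and 119.0 in CD32 2 h, 65.7 and 86.4 in CD32 6 h, 60.3 and 27.7 in CD64 2 h, and 119.1 and 102.8 in CD64 6 h. Its lowest array, the second of CD64 2 h, lay under the floor. The CD64 2 h arrays were below and the CD64 6 h arrays above both control arrays. CFLAR was 0.77 ± 0.401 SE lower than control after 2 h of CD64 (log2 -0.77, limma adjusted p = 0.255) and 0.45 higher after 6 h (adjusted p = 0.533), values that depend on the floor at 2 h. Isoforms of CFLAR and CASP8 were not analysed here.

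**Figure D1:**
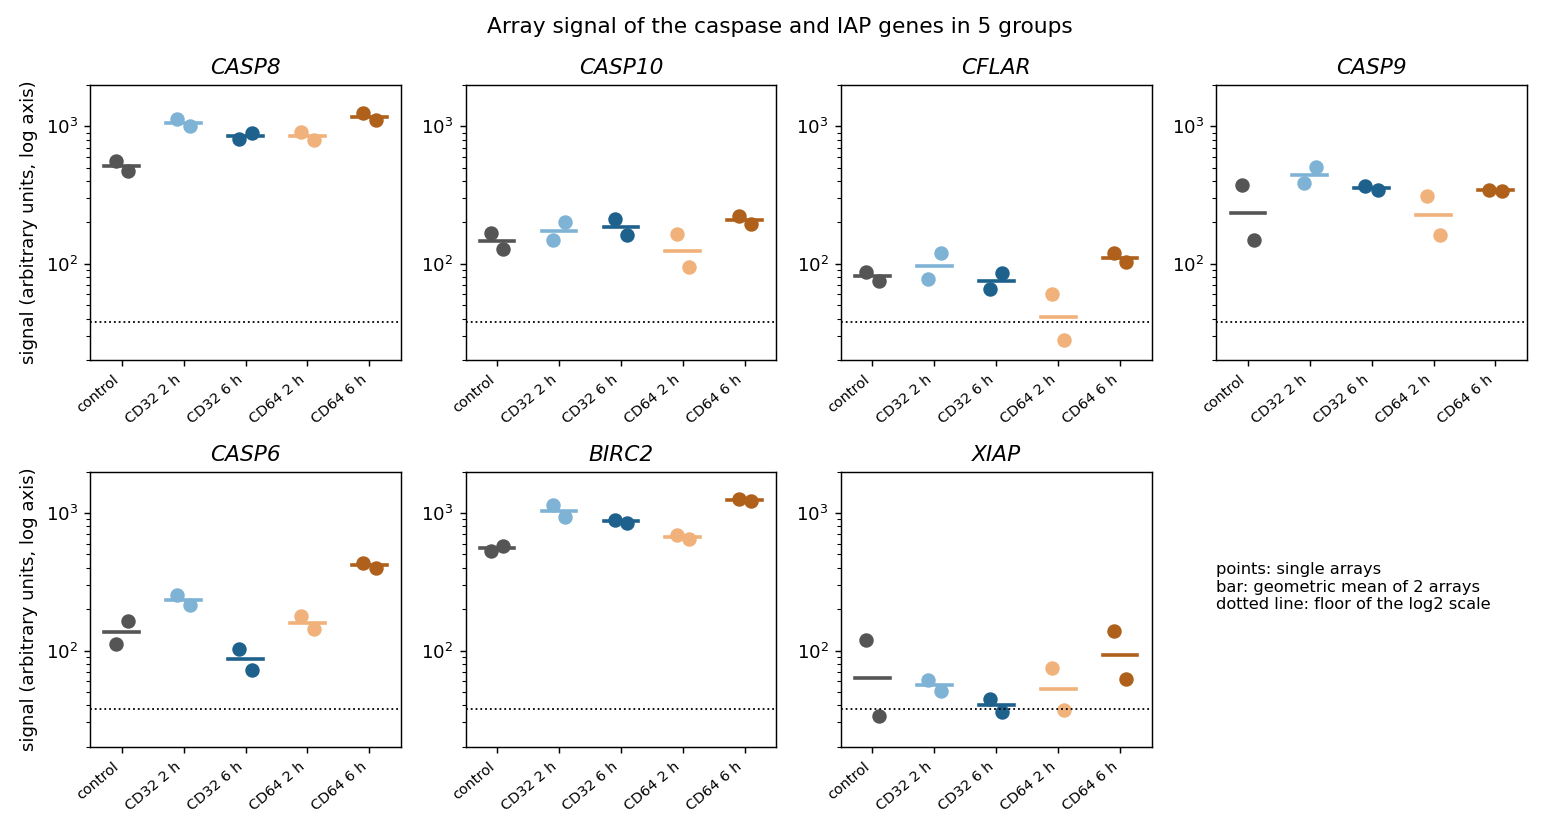
Signal of each of the 7 genes (vertical axis, arbitrary units, log axis) in the 5 groups (horizontal axis), with points for single arrays, bars for the geometric mean of 2 arrays and a dotted line at the floor of 37.5. CASP8 and BIRC2 lie above control in every cross-linked group, CASP6 is lowest in CD32 6 h (102.7 and 72.5) and highest in CD64 6 h (436.3 and 400.4), and CFLAR and XIAP come near the floor.

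CASP9, the initiator caspase of the mitochondrial route, read 374.3 and 148.7 on the control arrays, which differed 2.52-fold; the median ratio between the control arrays was 1.22-fold over all probe sets tested. It read 386.4 and 509.9 in CD32 2 h, 367.0 and 346.0 in CD32 6 h, 313.0 and 161.3 in CD64 2 h, and 347.1 and 336.4 in CD64 6 h. Of the cross-linked groups, CD32 2 h alone lay above both control arrays. Its difference from control was 0.91 ± 0.407 SE on the log2 scale (limma adjusted p = 0.179). Without control replicate 1, the higher control array, the difference was 1.58 and passed the test (limma adjusted p = 0.0264; range over the alternatives 0.0264 to 0.716). CASP9 did not pass the F-test over the groups (limma adjusted p = 0.274).

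CASP6, an effector caspase whose substrates include nuclear lamins, differed over the groups and was highest in CD64 6 h and lowest in CD32 6 h. Its signal was 111.9 and 164.8 in control. It was 254.3 and 214.8 after 2 h of CD32 and 102.7 and 72.5 after 6 h. It was 177.0 and 144.5 after 2 h of CD64 and 436.3 and 400.4 after 6 h. The CD32 2 h and CD64 6 h arrays lay above and the CD32 6 h arrays below both control arrays, and the CD64 2 h arrays overlapped with control. After 6 h of CD64 CASP6 rose 3.08-fold (log2 difference 1.62 ± 0.323 SE, n = 2 arrays per group, limma adjusted p = 0.00441). The other 3 differences from control did not pass: 0.78 in CD32 2 h (limma adjusted p = 0.144), -0.65 in CD32 6 h (0.200) and 0.24 in CD64 2 h (0.712). Between neighbours in the order CD32 6 h, control, CD64 2 h, CD32 2 h and CD64 6 h, 0 of 4 steps passed (limma adjusted p = 0.161 to 0.712), that from CD32 2 h to CD64 6 h included. The 3′ to 5′ actin ratio was lowest in CD64 6 h (1.12) and highest in CD32 6 h (1.99), the groups where CASP6 was highest and lowest, and its part in the result was not tested.

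BIRC2, also called c-IAP1, differed over the groups. Its arrays did not overlap between any pair of groups, a weak mark with 2 arrays per group. Its signal was 531.1 and 575.6 in control. It was 1145.2 and 939.2 after 2 h and 892.8 and 848.0 after 6 h of CD32. It was 694.1 and 652.1 after 2 h and 1258.5 and 1222.9 after 6 h of CD64. BIRC2 was thus lowest in control and highest in CD64 6 h. It rose 1.88-fold after 2 h of CD32 (log2 difference 0.91 ± 0.121 SE, n = 2 arrays per group, limma adjusted p = 0.000562), 1.57-fold after 6 h of CD32 (0.65, adjusted p = 0.00305) and 2.24-fold after 6 h of CD64 (1.17, adjusted p = 6.98e-05). After 2 h of CD64 the difference of 0.28 did not pass (limma adjusted p = 0.154). Between neighbours in the order control, CD64 2 h, CD32 6 h, CD32 2 h and CD64 6 h, 0 of 4 steps passed (limma adjusted p = 0.0522 to 0.299).

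XIAP, which binds caspases directly, was measured close to the floor. It read 120.2 and 33.7 in control, 61.4 and 50.6 in CD32 2 h, 44.4 and 36.0 in CD32 6 h, 75.1 and 37.0 in CD64 2 h, and 138.2 and 61.6 in CD64 6 h. On 3 of 10 arrays it lay under the floor of 37.5, and the control arrays differed 3.57-fold. XIAP passed neither the F-test (limma adjusted p = 0.550) nor any comparison. Its standard error was 0.578, so the 95% interval of the CD64 6 h difference from control ran from -0.82 to 1.74 on the log2 scale.

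In total, 3 of the 7 genes differed over the groups by the limma F-test, namely BIRC2, CASP8 and CASP6 (adjusted p = 0.000192, 0.000378 and 0.00231), where 34.5% of all 7708 probe sets tested did. After 2 h of CD32, 2 of 7 rose (28.6%; background 8.86% of all probe sets higher and 15.5% in either direction). After 6 h of CD32, 2 of 7 rose (background 9.63% higher and 20% in either direction). After 2 h of CD64, 1 of 7 rose (14.3%; background 7.64% higher and 15.9% in either direction), and after 6 h of CD64, 3 of 7 rose (42.9%; background 10.7% higher and 20.6% in either direction). In none of these 4 comparisons did limma call a member lower, and 0 were lower at an unadjusted p under 0.05. The background for lower calls was 6.6%, 10.3%, 8.24% and 9.94% in the same order. The median log2 difference of the 7 genes was 0.78, 0.34, -0.07 and 0.53, against -0.03, -0.08, -0.13 and -0.04 over all probe sets tested. The third of these medians is the value of CASP9, which turned to 0.07 after quantile normalization. When limma was fitted to the 2 groups of each comparison alone, 6 of these 8 calls missed the threshold (adjusted p = 0.0525 to 0.108), and those of BIRC2 and CASP8 after 6 h of CD64 held (0.0301 and 0.0376). The comparisons share the control arrays, so their values are given side by side and not counted against each other.

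**Figure D2:**
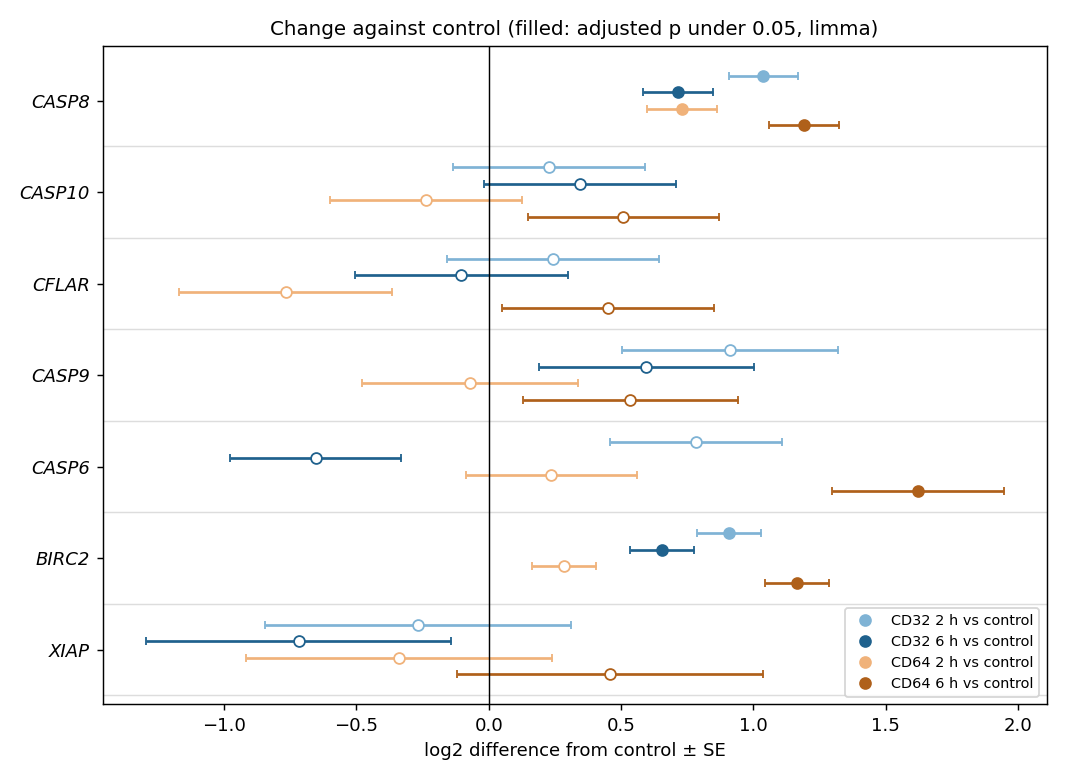
Log2 difference from control ± SE (horizontal axis) of the 7 genes (vertical axis) in the 4 cross-linked groups, 2 arrays per group, with filled points for adjusted p under 0.05 in limma. CASP8 is filled in all 4 comparisons, BIRC2 in 3 and CASP6 in CD64 6 h, where the difference is 1.62.

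The receptors were then compared at each time. After 2 h BIRC2 was 1.54-fold lower with CD64 than with CD32 (log2 -0.62 ± 0.121 SE, limma adjusted p = 0.0053), 1 of 7 genes called where 9.43% of all probe sets were called lower, 6.86% higher and 16.3% in either direction. Without CD32 2 h replicate 1 this difference was -0.48 and missed the threshold (limma adjusted p = 0.0521), as it did with the compared groups alone (0.094); the range over the alternatives was 0.00317 to 0.094. After 6 h 3 of 7 genes were higher with CD64 (background 9.81% higher, 7.8% lower and 17.6% in either direction). CASP6 was 4.84-fold higher (2.28 ± 0.323 SE, limma adjusted p = 0.000809) and kept its call under each of the 18 alternatives. BIRC2 was 1.43-fold higher (0.51, adjusted p = 0.014) and CASP8 1.39-fold higher (0.48, adjusted p = 0.0295). The BIRC2 call was lost after cyclic loess normalization (limma adjusted p = 0.074) and without the variance trend (0.0677). The CASP8 call was lost after quantile (limma adjusted p = 0.059) and cyclic loess normalization (0.147), with no filter on low values (0.0622), without the variance trend (0.106) and with the compared groups alone (0.0893). Both calls were also lost without any 1 of the 4 arrays compared. BIRC2 then had limma adjusted p = 0.0508 without CD32 6 h replicate 1, 0.0727 without CD32 6 h replicate 2, 0.0944 without CD64 6 h replicate 1 and 0.0701 without CD64 6 h replicate 2. CASP8 had 0.165, 0.0576, 0.203 and 0.0676 in the same order.

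Between 2 h and 6 h, 3 members rose with CD64 and 1 fell with CD32. With CD64, BIRC2 rose 1.84-fold (log2 0.88 ± 0.121 SE, limma adjusted p = 0.000944), CASP6 2.61-fold (1.39 ± 0.323, adjusted p = 0.0163) and CASP8 1.38-fold (0.46, adjusted p = 0.0405), 3 of 7 genes against a background of 7.56% higher, 6.25% lower and 13.8% in either direction. With the compared groups alone the limma adjusted p was 0.0536 for BIRC2, 0.0628 for CASP6 and 0.139 for CASP8, and all 3 calls were lost. The CASP6 call was also lost after quantile (limma adjusted p = 0.0824) and cyclic loess normalization (0.0739), and without CD64 2 h replicate 2 (limma adjusted p = 0.104), CD64 6 h replicate 1 (0.116) or CD64 6 h replicate 2 (0.0892). The CASP8 call was also lost after quantile (limma adjusted p = 0.094) and cyclic loess normalization (0.13), with no filter (0.0784), without the variance trend (0.139), and without any 1 of the 8 cross-linked arrays (0.0501 to 0.26). CFLAR was 1.22 ± 0.401 SE higher at 6 h than at 2 h of CD64 (limma adjusted p = 0.072) and was not called. With CD32, CASP6 fell by 1.44 on the log2 scale, or 2.71-fold (limma adjusted p = 0.0316), the 1 gene called where 2.43% of all probe sets were called lower, 2.04% higher and 4.46% in either direction. That call was lost after quantile (limma adjusted p = 0.0658) and cyclic loess normalization (0.063), with no filter (0.0573), without the variance trend (0.0701) and with the compared groups alone (0.172). It was also lost without any 1 of the 4 CD32 arrays (limma adjusted p = 0.0711 to 0.188), without CD64 6 h replicate 1 (0.0626) and without CD64 6 h replicate 2 (0.0665). BIRC2 and CASP8 were 0.25 and 0.32 lower at 6 h than at 2 h of CD32 (log2 -0.25 and -0.32) and were not called (limma adjusted p = 0.299 and 0.213).

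The interaction of receptor and time, the CD64 change from 2 h to 6 h minus the CD32 change, was positive and called for 3 of 7 genes (background 6.72% higher, 4.75% lower and 11.5% in either direction). It was 2.82 ± 0.457 SE for CASP6 on the log2 scale (limma adjusted p = 0.00307), 1.14 ± 0.171 for BIRC2 (adjusted p = 0.00202) and 0.78 ± 0.186 for CASP8 (adjusted p = 0.0204). The median of all probe sets was 0.16 for this term as deposited and -0.004 after quantile normalization. After quantile normalization the term was 2.48 for CASP6 (limma adjusted p = 0.015), 0.996 for BIRC2 (0.00657) and 0.67 for CASP8 (0.0531). The CASP8 call was also lost after cyclic loess normalization (0.575, limma adjusted p = 0.0949), without the filter on low values (adjusted p = 0.0524), without the variance trend (0.0923), and without CD32 2 h replicate 1 (limma adjusted p = 0.0846), CD32 6 h replicate 1 (0.0742), CD64 2 h replicate 2 (0.0762) or CD64 6 h replicate 1 (0.0903). For CFLAR the term was 1.56 ± 0.567 and was not called (limma adjusted p = 0.112).

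**Figure D3:**
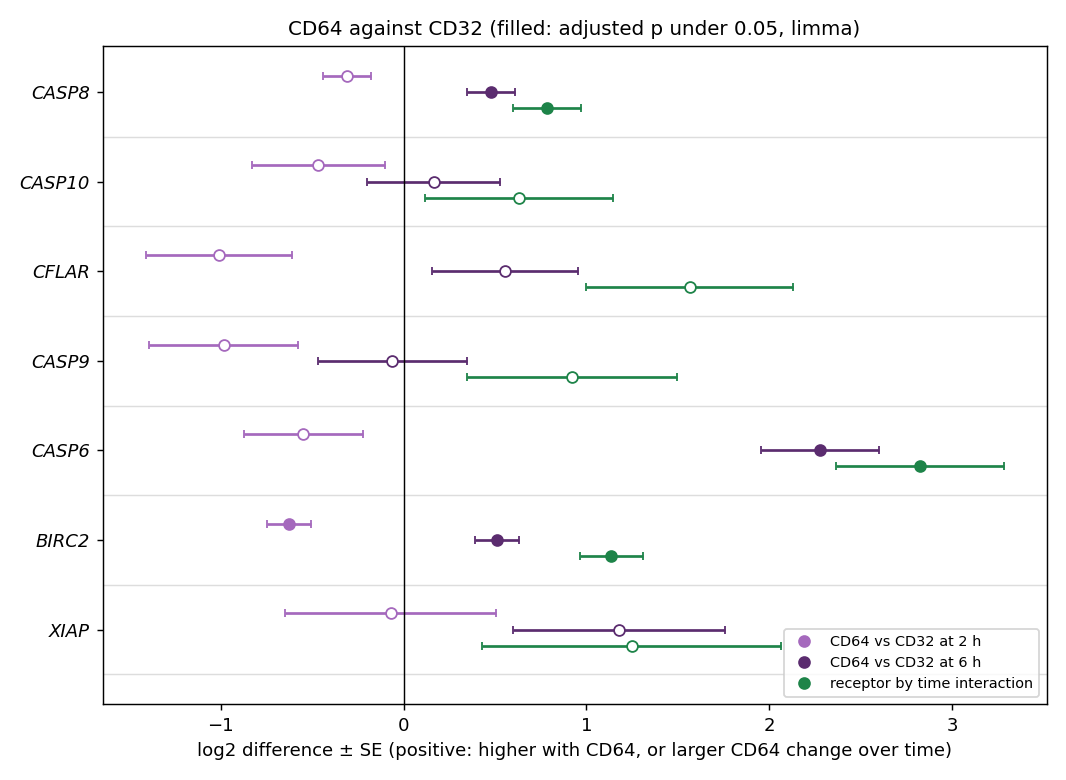
Log2 difference ± SE (horizontal axis) between CD64 and CD32 at 2 h and at 6 h, and their interaction with time, for the 7 genes (vertical axis), 2 arrays per group, with filled points for adjusted p under 0.05 in limma. CASP6 stands at 2.28 at 6 h and 2.82 for the interaction, and BIRC2 goes from -0.62 at 2 h to 0.51 at 6 h.

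The wider apoptosis machinery was read from 7 lists of 75 genes, of which 65 were on the array and 62 were tested. After 2 h and 6 h of CD32, 12 and 16 of the 62 rose (19.4% and 25.8%) and 3 fell each time (4.84%); the background was 8.86% and 9.63% of all probe sets higher, and 6.6% and 10.3% lower. After 2 h and 6 h of CD64, 7 and 14 rose (11.3% and 22.6%), and 6 and 5 fell (9.68% and 8.06%); the background was 7.64% and 10.7% higher, and 8.24% and 9.94% lower. The shares that fell after CD64 were thus near the background. Among the death receptors, ligands and adaptors 5, 6, 1 and 4 of 16 genes rose in the order CD32 2 h, CD32 6 h, CD64 2 h and CD64 6 h. These are 31.2%, 37.5%, 6.25% and 25% of the list, against 8.86%, 9.63%, 7.64% and 10.7% of all probe sets, so the share in CD64 2 h was near the background. None of the 16 was called lower by limma in these 4 comparisons; 0, 0, 1 and 1 were lower at an unadjusted p under 0.05. The list's median log2 difference was 0.51, 0.21, 0.09 and 0.33. TNFSF10, the death ligand TRAIL, read 277.7 and 306.7 in control, 804.8 and 792.7 in CD32 2 h, 895.9 and 845.8 in CD32 6 h, 249.3 and 232.1 in CD64 2 h, and 2272.5 and 2388.3 in CD64 6 h. It rose 2.74-fold, 2.98-fold and 7.98-fold in CD32 2 h, CD32 6 h and CD64 6 h (limma adjusted p = 1.99e-05, 8.3e-06 and 9.24e-08), and CD64 2 h was not called (adjusted p = 0.152). TNFRSF10B, a receptor for TRAIL that engages CASP8, rose in all 4 comparisons, by 2.76-fold, 3.34-fold, 2.46-fold and 2.85-fold. TRAF1, an adaptor that binds BIRC2 through TRAF2, had a control mean under the floor, so its folds are lower bounds. It rose at least 2.38-fold, 3.51-fold and 4-fold in CD32 2 h, CD32 6 h and CD64 6 h (limma adjusted p = 0.0464, 0.00602 and 0.00311). Its CD64 2 h difference was not called.

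Of the genes around CASP9, CYCS, which encodes cytochrome c, rose 1.38-fold, 1.56-fold and 1.31-fold in CD32 2 h, CD32 6 h and CD64 2 h (limma adjusted p = 0.0101, 0.00116 and 0.0227). APAF1, the scaffold that activates CASP9, rose 1.91-fold after 6 h of CD64 (limma adjusted p = 0.0183). Among 12 BCL2 family genes 2, 3, 3 and 3 rose and 1, 0, 1 and 2 fell in the same order of groups. The shares that rose were 16.7%, 25%, 25% and 25% (background 8.86%, 9.63%, 7.64% and 10.7%), and the shares that fell were 8.33%, 0%, 8.33% and 16.7% (background 6.6%, 10.3%, 8.24% and 9.94%); after 6 h of CD32, 0 also had a lower signal at a limma p under 0.05 before adjustment. The BH3-only gene PMAIP1 rose in all 4 comparisons, from 250.1 and 226.0 in control to 1021.7 and 971.6 in CD64 6 h (4.19-fold, limma adjusted p = 1.26e-05). The survival gene MCL1 rose 2.33-fold after 6 h of CD32 and 2.81-fold after 2 h of CD64. The pore-forming BAX fell at least 2.84-fold after 2 h of CD64, where its mean lay under the floor (limma adjusted p = 0.0244).

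Of the IAP antagonists and other IAP genes 1, 0, 0 and 1 of 7 rose and 0, 2, 0 and 0 fell. A single gene is 14.3% of this list, against a background of 8.86% and 10.7% higher in the groups with 1 call, and the 2 that fell are 28.6%, against 10.3% lower. Before adjustment, 1, 0, 0 and 2 had a limma p under 0.05 with a higher signal, and 0, 3, 0 and 0 with a lower one. XAF1, an interferon-induced XIAP-binding protein, rose 2.84-fold after 2 h of CD32 and 2.998-fold after 6 h of CD64 (limma adjusted p = 0.0134 and 0.00738). DIABLO, the mitochondrial IAP antagonist, and BIRC5, or survivin, fell 1.59-fold and 1.48-fold after 6 h of CD32 (limma adjusted p = 0.00276 and 0.0255). Of 4 other caspases tested, 1, 1, 0 and 1 rose, and 1 fell, in CD64 2 h. A single gene is 25% of this list. The background in the groups with a call was 8.86% to 10.7% higher and 8.24% lower. The inflammatory caspase CASP1 rose 1.81-fold, 1.85-fold and 2.54-fold in CD32 2 h, CD32 6 h and CD64 6 h, and CASP2 fell 2.4-fold after 2 h of CD64. Among 9 caspase substrates and death effectors 0, 1, 0 and 1 rose (0%, 11.1%, 0% and 11.1%), near or under the background. Before adjustment, 2, 2, 1 and 3 had a limma p under 0.05 with a higher signal. In the same order 2, 1, 2 and 2 fell (22.2%, 11.1%, 22.2% and 22.2%, against 6.6%, 10.3%, 8.24% and 9.94%). DFFA, the inhibitor of the caspase-activated nuclease, fell in all 4 comparisons, by 1.92-fold, 1.84-fold, 2.03-fold and 2.52-fold. The lamin gene LMNB1 fell 1.62-fold after 2 h of CD32 and 1.49-fold after 6 h of CD64, and LMNA rose 1.92-fold after 6 h of CD32 and fell 1.28-fold after 2 h of CD64. Of 12 NF-kappaB genes 2, 4, 2 and 3 rose (16.7%, 33.3%, 16.7% and 25%, against 8.86%, 9.63%, 7.64% and 10.7% of all probe sets) and 0, 0, 2 and 1 fell (0%, 0%, 16.7% and 8.33%, against 6.6%, 10.3%, 8.24% and 9.94%); before adjustment 1, 0, 3 and 2 had a limma p under 0.05 with a lower signal. NFKBIA, the inhibitor induced by NF-kappaB itself, rose 1.64-fold, 2.6-fold and 1.59-fold in CD32 2 h, CD32 6 h and CD64 6 h. NFKB2 fell 4.86-fold after 2 h of CD64 (log2 -2.28 ± 0.428 SE, limma adjusted p = 0.00482). The NFKB2 arrays read 297.1 and 336.0 in control and 107.5 and 39.3 in CD64 2 h. The last of these lay just above the floor, and the size of the fall is uncertain. CHUK, a catalytic subunit of the kinase that marks NFKBIA for degradation, rose 2.65-fold and 2.44-fold after 2 h and 6 h of CD64 (limma adjusted p = 0.00985 and 0.0109).

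**Figure D4:**
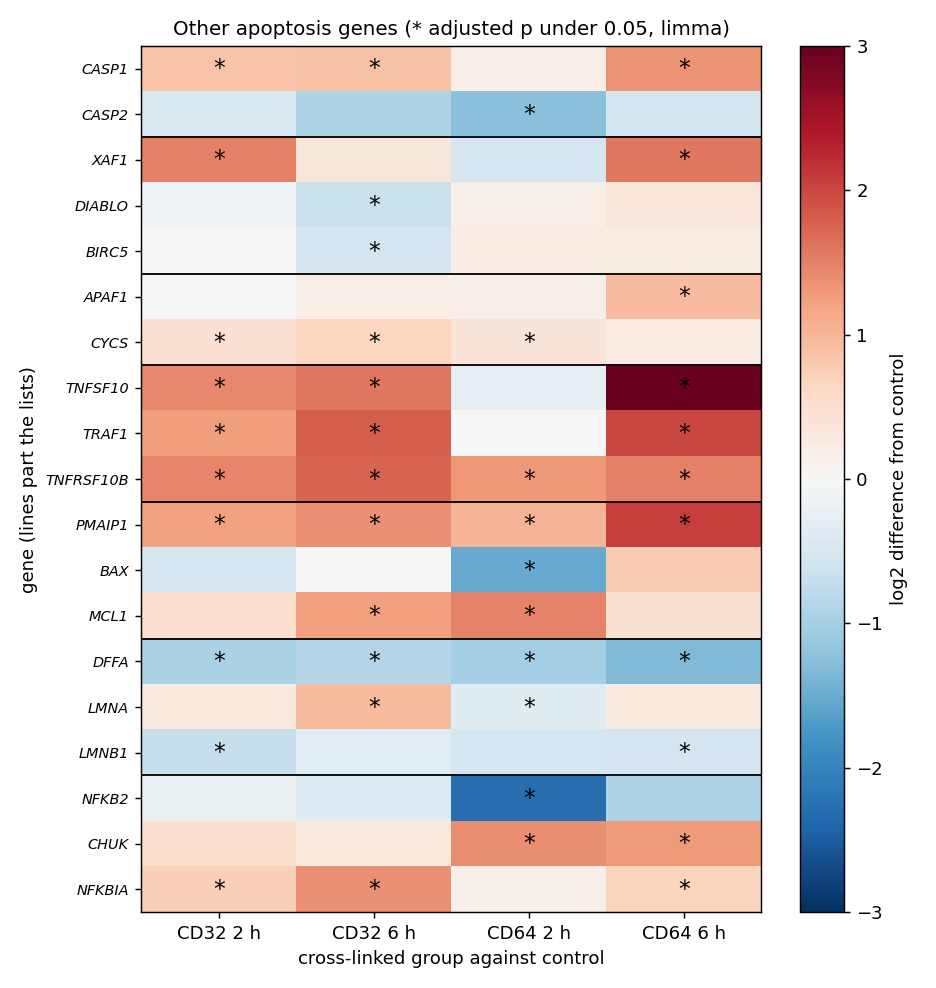
Log2 difference from control (colour, red higher and blue lower) in the 4 cross-linked groups (columns) of 19 genes of the apoptosis lists (rows, parted by list), with an asterisk for adjusted p under 0.05 in limma. TNFRSF10B, PMAIP1 and DFFA carry an asterisk in each column, and TNFSF10 is deepest in CD64 6 h.

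Across the 10 arrays the genes most like each member were sought among 2333 genes that passed the F-test, by Pearson correlation of log2 signal, as a description over arrays that share groups and scaling. BIRC2 was closest to ATG5, an autophagy gene (r = 0.986), and GLIPR1 (0.978). CASP8 was closest to SLC33A1 (0.974). CASP6 was closest to SOCS2, a cytokine signalling inhibitor (0.955), and PSPH, a serine synthesis enzyme (0.928). CFLAR was closest to NBN (0.930) and the immunoproteasome subunit PSMB8 (0.880), CASP9 to THEMIS2 (0.846) and GFPT1 (0.826), CASP10 to STRN (0.842) and OAS1 (0.819), and XIAP to DVL1 (0.829) and POLR3K (0.820). Among the members themselves CASP8 and BIRC2 were the most alike pair (r = 0.896 over 10 arrays). CASP8 and its neighbour CASP10 had r = 0.448, and CASP8 and CFLAR, with CASP10 between them, 0.329. SOCS2 read 486.2 to 583.9 in CD64 6 h and 144.2 to 151.4 in CD32 6 h, the same highest and lowest groups as CASP6. It was chosen by its correlation with CASP6 on these arrays, so the shared groups are no separate support.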

How the data were processed

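RNA was profiled on 10 1-colour oligonucleotide arrays, 5 groups of 2. Signal intensity on a linear scale was deposited for each probe set; the software behind it is not given in the sources used here. Trimmed of 2% of probe sets at either end, array means were 500.5 to 500.6, so no scaling was added. Of 8793 probe sets, 47 were controls; of the other 8746, 7840 had 1 gene symbol, 388 had several and 518 had none. Values under 37.5, percentile 25 of all values, were set to that floor before log2. Probe sets above it on at least 2 arrays were tested (7708). Group means were estimated in limma 3.58.1 (R 4.3.3; lmFit and eBayes with a variance trend) from all 10 arrays, two-sided, with Benjamini-Hochberg adjustment over all probe sets tested, and called at an adjusted p under 0.05. The ± values are standard errors from this fit, and intervals are 95%. The fit was also run on simulated data. The share of large changes it had to recover there was lowered after the first run fell short. That run therefore gives no assurance that changes were not missed. Where the lower group's mean lay at or under the floor, a fold is a lower bound.

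The members and lists were chosen with earlier results of these data known. All members were named, with up to 3 called genes per list by largest change and 2 like genes per member, of which 1 is not reported here. There were 9 comparisons; 8 other settings and the loss of each of the 10 arrays were tried.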

Additional observations from a re-analysis of the deposited data

Results flagged for a closer look

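The receptor by time interaction of 3 genes passed the limma test of the difference itself, so that their change from 2 h to 6 h differed between CD64 and CD32. On the log2 scale it was 1.14 for BIRC2, 2.82 for CASP6 and 0.78 for CASP8, each higher with CD64. BIRC2 and CASP6 kept this call under each of the 18 alternatives, whereas CASP8 kept it under 10, with limma adjusted p from 0.0121 to 0.0949 over the 18. With CD64 the change from 2 h to 6 h was 0.88, 1.39 and 0.46 for these genes, and with CD32 it was -0.25, -1.44 and -0.32. The actin ratio fell from 1.81 to 1.12 over that time with CD64 and rose from 1.56 to 1.99 with CD32, and its part in these values was not tested.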

How the results depend on the processing

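No paired analysis was possible because the labels number the control arrays alone. Of 19 called differences of single members, 0 changed sign under the 18 alternatives and 5 kept their call under each of them; 14 lost it under 1 or more. CFLAR and XIAP could not be fitted under the filter that requires a signal above the floor on all 10 arrays. With only the groups compared in the limma fit, 0 members were called in each of 6 comparisons: CD32 2 h, CD32 6 h and CD64 2 h against control (2 members each at an unadjusted p under 0.05), CD64 against CD32 at 2 h (1 member), 6 h against 2 h of CD32 (2 members) and of CD64 (4 members). For 6 h against 2 h of CD32, limma also called 0 after quantile or cyclic loess normalization or without the variance trend (1 member at an unadjusted p under 0.05 in each) and with no filter on low values (3 members). For 6 h against 2 h of CD64 the count was 1 after quantile and after cyclic loess normalization, and for CD64 against CD32 at 6 h it was 1 after cyclic loess normalization and without the variance trend. With each array left out in turn, the counts ranged from 2 to 3 for CD32 2 h against control, and stayed at 2 for CD32 6 h, at 1 for CD64 2 h and at 3 for CD64 6 h against control, and ranged from 0 to 1 and from 1 to 3 for CD64 against CD32 at 2 h and 6 h. They ranged from 0 to 1 and from 1 to 3 for 6 h against 2 h of CD32 and CD64, from 2 to 3 for the interaction and from 3 to 4 for the F-test. Some of these fits used fewer arrays, and the cause of these changes was not tested. XIAP and CFLAR are limited by signal near the floor. Quantile normalization moved the median of all probe sets by over 0.1 for CD64 2 h against control (-0.13 to 0), CD64 against CD32 at 2 h (-0.11 to 0), 6 h against 2 h of CD64 (0.09 to -0.01) and the interaction (0.16 to -0.004). Under that normalization the differences of CASP9, CASP10 and XIAP from control at CD64 2 h, none of them called, turned from -0.07, -0.24 and -0.34 to 0.07, 0.05 and 0.06.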
